A study of Mus musculus with 6 samples.

Results

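Transcripts of secreted cytokines and chemokines were examined in iNKT1 cells of the mouse thymus. These are the T-bet-expressing, interferon gamma-producing subset of invariant natural killer T cells. The genes came from a list of 9 names, Ifng, Il4, Tnf, Lta, Ltb, Xcl1, Ccl3, Ccl4 and Ccl5, matched by symbol to the deposited expression table. This gave 8 genes of the 17985 in the table, and Ccl3 was not analysed here. All 8 passed the filter on low values, a mean over the 6 libraries of 1 CPM (a gene's reads scaled to a common library total) or more, as did 15691 genes in all.

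The study compared 3 control libraries (Ctrl) with 3 conditional knockout libraries (cKO), all from untreated mice on the C57BL/6 background. Every mouse, control or knockout, carried a Cre recombinase transgene under Tbx21 control (Tbx21CreTg) and the Rosa26-LSL-YFP+/+ reporter, which turns on yellow fluorescent protein where Cre has acted. The cKO mice carried in addition loxP-flanked Tgfbr2 (Tgfbr2F/F), the gene of a TGF-beta receptor subunit, so the gene was targeted in cells that express the transgene or descend from such cells. The labels call the replicates independent. Age, sex, whether each library came from a separate mouse or a pool, and the gates used to isolate the cells are not given in the sources used here, and p-values measure the spread between these libraries, which may be partly technical.

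Cytokines and chemokines are short secreted or membrane-bound proteins by which one cell instructs another. Innate-like T cells such as iNKT cells carry transcripts of several of them before any stimulus, and release the proteins within hours of antigen receptor engagement. Interferon gamma (Ifng) and interleukin 4 (Il4) are the signature effector cytokines of type 1 and type 2 responses. Tnf, Lta and Ltb encode the tumour necrosis factor and lymphotoxins, whose trimers act on receptors of immune and stromal cells. Xcl1, Ccl4 and Ccl5 encode chemokines that attract dendritic cells, T cells and NK cells.

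Libraries held between 28832779 and 68092478 reads, so that 1 read was worth 0.0147 to 0.0347 CPM, and the values of these 8 genes rested on 124 (Ccl4) to 108854 reads (Ltb). The replicate 3 libraries stood apart from the others: 4406 (Ctrl) and 4590 (cKO) genes were listed at 0 in them, against 0 to 5 in the other 4 libraries. Every one of the 10 identity genes listed for iNKT1 cells was read, with a summed level of 9013 to 10445 CPM in Ctrl and 9414 to 12240.5 CPM in cKO. None of the 10 passed a limma adjusted p of 0.05. With the replicate number as a block in the fit, 1 of the 10 passed as higher in cKO, against 1.24% of all tested genes. The targeted gene Tgfbr2 was at 461, 461 and 425 CPM in the Ctrl libraries and at 290, 258 and 274 CPM in the cKO libraries (limma adjusted p 0.0207). The integrin gene Itgae (738 to 30.1 CPM), which TGF-beta induces, and the feedback repressors Skil (114 to 22.05 CPM) and Ski (48.7 to 13.9 CPM) fell with it, with limma adjusted p values of 0.00403, 0.00241 and 0.0156.

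The start of a gene is where factors such as NFAT, NF-kappaB and T-bet meet the cytokine loci. Windows from 250 bases before to 50 bases after the annotated starts were read from RefSeq on GRCm38.p6 for 6 of the 8 genes, 7 windows in all since Il4 has 2 starts. Ccl4 and Ccl5 matched no entry. The windows of Xcl1 and of the upstream Il4 start are shown because transcripts of these 2 genes were lower in every cKO library than in every Ctrl library, and that of Ifng because it was higher. They lie at chr1:164935473-164935772 (minus strand), chr11:53618616-53618915 (minus strand) and chr10:118440796-118441095 (plus strand), each printed 5′ to 3′ along its gene, with matches to the motifs searched in capitals.

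Xcl1: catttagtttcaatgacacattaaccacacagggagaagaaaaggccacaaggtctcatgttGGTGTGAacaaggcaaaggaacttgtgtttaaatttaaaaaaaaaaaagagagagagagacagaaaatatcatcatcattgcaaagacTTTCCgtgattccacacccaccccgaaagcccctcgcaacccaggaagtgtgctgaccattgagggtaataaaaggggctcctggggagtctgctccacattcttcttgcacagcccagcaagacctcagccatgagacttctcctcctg
Il4: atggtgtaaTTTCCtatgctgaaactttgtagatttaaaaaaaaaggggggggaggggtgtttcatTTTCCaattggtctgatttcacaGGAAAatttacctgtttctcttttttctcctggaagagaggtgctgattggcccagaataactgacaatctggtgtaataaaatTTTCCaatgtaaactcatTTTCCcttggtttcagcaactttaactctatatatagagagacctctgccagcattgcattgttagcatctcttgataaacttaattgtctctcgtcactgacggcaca
Ifng: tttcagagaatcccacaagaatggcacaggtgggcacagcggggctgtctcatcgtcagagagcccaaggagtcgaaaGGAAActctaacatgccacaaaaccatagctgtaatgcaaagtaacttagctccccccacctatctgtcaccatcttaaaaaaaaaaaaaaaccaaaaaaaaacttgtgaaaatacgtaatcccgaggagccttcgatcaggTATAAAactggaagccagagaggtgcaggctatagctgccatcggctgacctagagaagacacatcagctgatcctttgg

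Motifs were searched on both strands as the NFAT core GGAAA, the kappaB motif (GGG, any 2 bases, then TTTCC), the T-box motif TCACACC, the SMAD motif CAGACA, the AP-1 motif TGANTCA and the TATA box TATAAA. The NFAT core was in all 7 windows, with 5 copies in the Il4 window shown and 3 each in those of Tnf and Lta, but 61.3% of all 32851 promoter windows also hold it. The T-box motif was in the Xcl1 window alone, as its reverse complement with its first base at position -188 from the start, and is in 4.0% of all windows. The kappaB motif was in the Ltb window alone, where it overlaps the NFAT core, against 1.63% of all windows. The SMAD motif was in the Lta window only (21.04% of all windows), the AP-1 motif in none of the 7 (7.81%), and the TATA box in those of Ifng, Tnf and Lta (13.6%). A match describes the letters in the window and was not tested as a bound site.

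Cytokine messages are also known for AU-rich stretches in the 3′ untranslated region, copies of the pentamer ATTTA that decay factors such as tristetraprolin (Zfp36) bind. In GENCODE M21 transcripts, the 3′ untranslated region of Tnf (764 bases) holds 8 copies and that of Ifng (631 bases) holds 6. The densest stretches of both are shown, with ATTTA in capitals, at chr17:35199679-35199708 (minus strand) and chr10:118445330-118445359 (plus strand) on GRCm38.

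Tnf: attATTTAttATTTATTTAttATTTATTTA
Ifng: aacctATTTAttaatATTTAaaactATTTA

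The Tnf stretch holds 5 overlapping or adjacent copies in 30 bases, a count reached in a 30-base window by 0.216% of the 12989 tested genes with an annotated 3′ region, and the Ifng stretch holds 3, reached by 2.52%. Lta has 3 copies, Ccl4 2 and Xcl1 1, whereas Ltb and Ccl5 have none, as do 29.4% of those genes. The 3′ regions of these 7 genes are shorter than the median of 1150 bases. The 3′ region of Il4 is not reported here.

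Among the 8 genes, the largest log2 fold changes were those of the chemokine genes Ccl5 (1.14) and Xcl1 (-0.97), followed by Il4 (-0.88). Xcl1 fell to 50.5% of its Ctrl level in cKO, and Ccl5 was at 2.23 times its Ctrl level, while Ccl4 differed by less than its spread. The effector cytokines Il4 and Ifng also differed in direction, with Il4 at 52.3% and Ifng at 136% of the Ctrl mean. The tumour necrosis factor family genes Tnf, Lta and Ltb did not pass any fit. Of the 8 genes, 1 passed a limma adjusted p of 0.05 (Xcl1, lower), where 0.663% of all 15691 tested genes passed, 0.204% higher and 0.459% lower. With the replicate number as a block, which takes out what same-numbered libraries share, 3 of 8 passed (Xcl1 and Il4 lower, Ccl5 higher), against 2.87% of all tested genes, 1.24% higher and 1.64% lower. edgeR on recovered reads without the block called none of the 8 and 0.261% of all tested genes. Same-numbered libraries deviated together from their group means, so the block is given beside each result whose call it changes. No value of one group lay within the range of the other for 4 of the 8 genes, Xcl1, Il4, Ccl5 and Ifng, against 11.0% of all tested genes. The median log2 fold change of the 8 was -0.21, beside -0.038 over all tested genes.

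**Figure D1:**
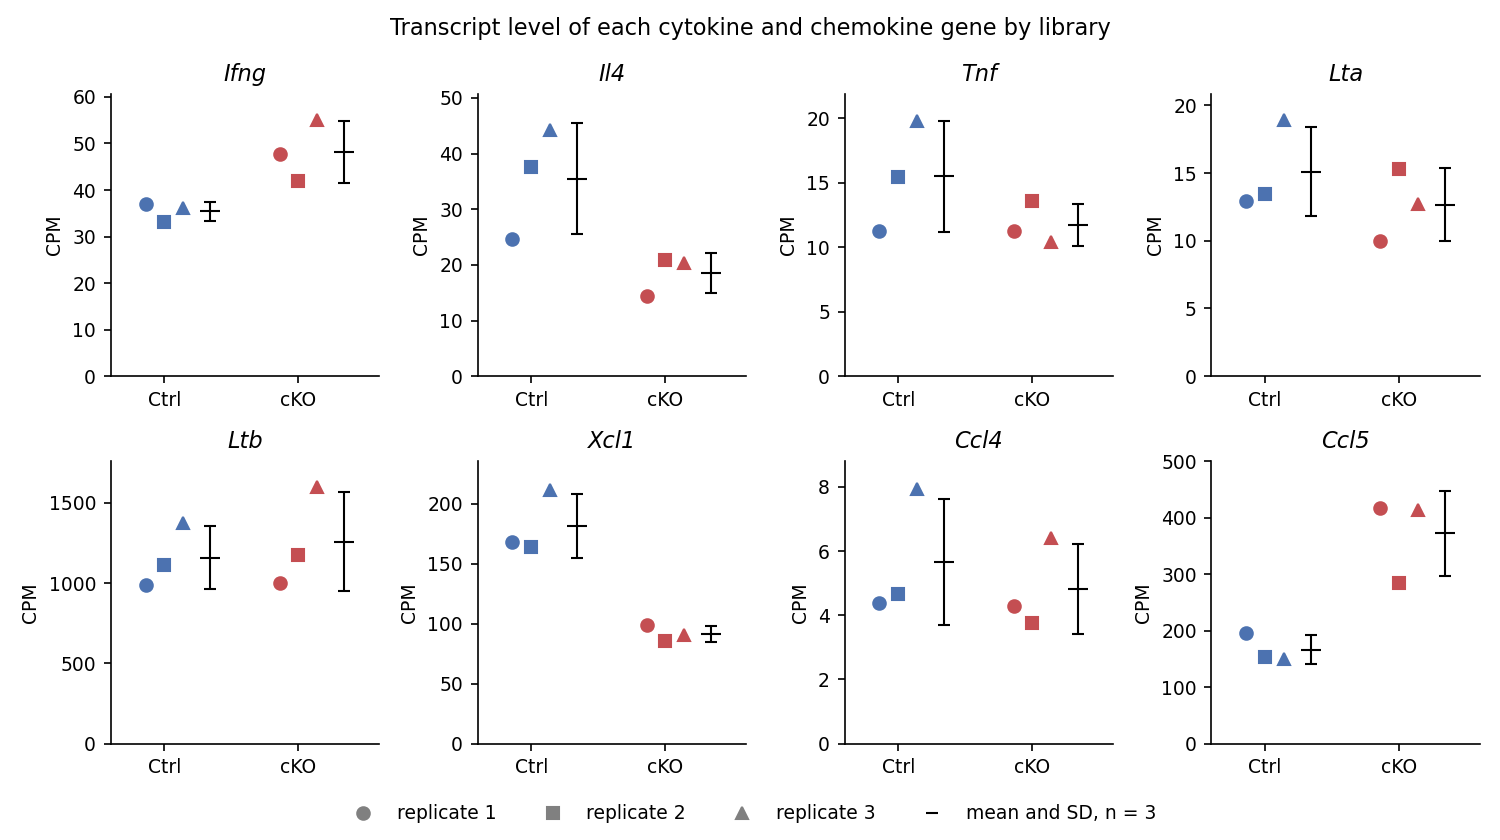
CPM of each gene in each library (vertical axis from 0, a scale of its own per panel), for Ctrl in blue and cKO in red, with the replicate number as the symbol and the mean and SD (n = 3) beside the points. The 3 cKO points lie below all Ctrl points for Xcl1 and Il4 and above them for Ccl5 and Ifng, and the groups overlap for Tnf, Lta, Ltb and Ccl4.

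Xcl1 (ENSMUSG00000026573, chromosome 1, 164931644 to 164935527, minus strand) encodes lymphotactin, a chemokine with a single conserved disulphide bond that attracts cross-presenting dendritic cells through the receptor XCR1. Ctrl libraries 1, 2 and 3 gave 167.8, 163.9 and 211.7 CPM of Xcl1, and the corresponding cKO libraries gave 98.5, 85.7 and 90.2 CPM. The highest cKO library was thus well below the lowest Ctrl library, and the cKO libraries lay close together. Its mean fell from 181 ± 26.6 CPM in Ctrl to 91.5 ± 6.51 CPM in cKO (SD, n = 3 each). The log2 fold change of Xcl1 on the log2(CPM + 1) scale was -0.97 with a standard error of 0.12 (95% interval -1.26 to -0.68, limma adjusted p 0.0281, and 0.00147 with the block). With any 1 library left out and no block, Xcl1 no longer passed, with log2 fold changes from -1.04 to -0.85 and limma adjusted p values from 0.0638 to 0.147. In replicates 1 and 2 alone it was -0.84 with a limma adjusted p of 0.00222, where 1.85% of all tested genes passed. In the authors' deposited table Xcl1 had a log2 fold change of -0.93 and an adjusted p of 0.00121.

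An antisense gene, Gm20743, shares exon sequence with Xcl1 on the opposite strand and is counted separately in the table. Gm20743 was at 17.4, 15.1 and 18.8 CPM in Ctrl and at 12.8, 8.90 and 4.74 CPM in cKO, lower in cKO in 3 of 3 pairs. Strand-specific counting is not given in the sources used here, and without it reads from the shared stretch cannot be told apart.

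Ccl5 (ENSMUSG00000035042, chromosome 11, 83525778 to 83530518, minus strand) encodes RANTES, a chemokine that cytotoxic and memory T cells store and that attracts T cells and monocytes. The Ctrl libraries gave 196, 153 and 151 CPM of Ccl5, against cKO values of 418, 285 and 415 CPM. The lowest cKO value was above the highest Ctrl value, although cKO replicate 2 was clearly lower than the other cKO libraries. Group means were 167 ± 25.5 CPM (Ctrl) and 372 ± 75.9 CPM (cKO; SD, n = 3 each). The log2 fold change of Ccl5 was 1.14 with a standard error of 0.18 (95% interval 0.71 to 1.58). It missed the threshold without the block (limma adjusted p 0.0631) and passed with it (0.000780). Ccl5 was higher in cKO in 3 of 3 same-numbered pairs, by 2.13, 1.86 and 2.75 times. With the block it also passed in each set of 2 replicate numbers, with log2 fold changes from 0.99 to 1.27. In the authors' deposited table Ccl5 had a log2 fold change of 1.24 and an adjusted p of 0.000596.

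Ccl4 (ENSMUSG00000018930, chromosome 11, 83662584 to 83664683, plus strand) encodes MIP-1beta, a chemokine that activated T cells and NK cells produce. Its locus lies 132 kilobases from Ccl5. In replicate order, Ctrl libraries held 4.37, 4.68 and 7.93 CPM of Ccl4, and cKO libraries held 4.30, 3.76 and 6.40 CPM, so the groups overlapped and replicate 3 was highest in each. For Ccl4 the log2 fold change was -0.18 with a 95% interval of -0.96 to 0.59 (limma adjusted p 0.99998, and 0.760 with the block). The interval spans cKO levels from 0.515 to 1.51 times those of Ctrl, and the sign turned without Ctrl replicate 3 (log2 fold change 0.050).

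Il4 (ENSMUSG00000000869, chromosome 11, 53602982 to 53618669, minus strand) encodes interleukin 4, which drives type 2 responses and which thymic iNKT cells supply at steady state. Ctrl libraries 1, 2 and 3 gave 24.6, 37.5 and 44.3 CPM of Il4, while their cKO counterparts gave 14.4, 20.9 and 20.4 CPM. All cKO values were below all Ctrl values, but the Ctrl libraries were widely spread and replicate 1 was lowest in each group. Group means were 35.5 ± 10.01 CPM (Ctrl) and 18.6 ± 3.65 CPM (cKO; SD, n = 3 each), and the ratio of cKO to Ctrl was 0.584, 0.558 and 0.460 in pairs 1 to 3. Il4 had a log2 fold change of -0.88 (standard error 0.25, 95% interval -1.47 to -0.29). It did not pass without the block (limma adjusted p 0.421) and passed with it (0.00806), and with the block it passed in each set of 2 replicate numbers. The authors' deposited table gave Il4 an adjusted p of 0.492.

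Il4 is also a marker of the iNKT2 subset, so the other iNKT2 markers are given beside it. Of the 6 of 8 listed iNKT2 markers in the table, none passed without the block, where 0.663% of all genes did. With the block, where 2.87% of all tested genes passed, Cd4 (121 to 176 CPM), Ccr4 (10.7 to 23.8 CPM) and Plac8 (8.32 to 23.0 CPM) passed as higher. Il4 passed as lower, and the limma adjusted p values of the genes that passed ran from 0.00613 to 0.0169. Of the 6, 4 had a higher and 2 a lower mean log2 level in cKO. The other lower gene, Gata3 (202 to 181 CPM), did not pass (limma adjusted p 0.99998, and 0.444 with the block). The summed level of the 6 ran from 354 to 423 CPM in Ctrl and from 365 to 499 CPM in cKO, and its part in the Il4 result was not tested. In a bulk sample, fewer cells of a type and less RNA per cell cannot be told apart.

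Ifng (ENSMUSG00000055170, chromosome 10, 118441047 to 118445892, plus strand) encodes interferon gamma, the defining cytokine of the iNKT1 subset and of T-bet-expressing lymphocytes in general. The Ctrl libraries gave 37.1, 33.2 and 36.1 CPM of Ifng, against cKO values of 47.7, 41.9 and 55.1 CPM. The Ctrl libraries lay close together, and each cKO library was above all of them. Group means were 35.4 ± 2.02 CPM (Ctrl) and 48.2 ± 6.63 CPM (cKO; SD, n = 3 each). Ifng had a log2 fold change of 0.43 (standard error 0.13, 95% interval 0.13 to 0.73), and it passed neither without the block (limma adjusted p 0.458) nor with it (0.105). DESeq2 on the recovered reads gave 0.50 with an adjusted p of 0.0442, where it called 4.72% of the genes to which it gave an adjusted p. Over the other 18 alternatives and the 6 fits that left out a library, Ifng stayed higher in cKO and did not pass. Another annotated gene, Gm49751, shares exon sequence with Ifng on the same strand and is not listed in the deposited table. How reads from that shared stretch were counted is not given in the sources used here.

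The 3 genes of the tumour necrosis factor family lie side by side on chromosome 17. Tnf (ENSMUSG00000024401, 35199381 to 35202007, minus strand) encodes the inflammatory cytokine TNF, which is made on the membrane and shed. Ctrl libraries 1, 2 and 3 held 11.2, 15.4 and 19.8 CPM of Tnf, and cKO libraries 1, 2 and 3 held 11.2, 13.6 and 10.4 CPM. Pairs 1 and 2 were close, with ratios of cKO to Ctrl of 1.0025 and 0.879, and the difference lay mainly in replicate 3, with 0.525. Tnf had a log2 fold change of -0.35 (95% interval -0.89 to 0.20, limma adjusted p 0.99998, and 0.549 with the block).

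Lta (ENSMUSG00000024402, 35203165 to 35205351, minus strand) encodes lymphotoxin alpha, which is secreted alone or held at the surface by lymphotoxin beta. The Ctrl libraries held 13.0, 13.5 and 18.9 CPM of Lta, and those of cKO held 9.99, 15.3 and 12.7 CPM. It was lower in cKO in 2 pairs and higher in the pair of replicate 2, and the groups overlapped. Lta had a log2 fold change of -0.24 (95% interval -0.76 to 0.29, limma adjusted p 0.99998, and 0.692 with the block).

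Ltb (ENSMUSG00000024399, 35194439 to 35196320, plus strand) encodes lymphotoxin beta, the membrane partner whose receptor on stromal cells organises lymphoid tissue. Ctrl libraries 1, 2 and 3 held 991, 1114 and 1372 CPM of Ltb, while cKO libraries held 999, 1176 and 1599 CPM. Replicate 1 was lowest and replicate 3 highest in each group, and the groups overlapped. Ltb had a log2 fold change of 0.10 (95% interval -0.37 to 0.57, limma adjusted p 0.99998, and 0.645 with the block), and the interval spans cKO levels from 0.776 to 1.49 times those of Ctrl. The sign of the Ltb difference turned without Ctrl replicate 1 (log2 fold change -0.0027) or without cKO replicate 3 (-0.083).

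**Figure D2:**
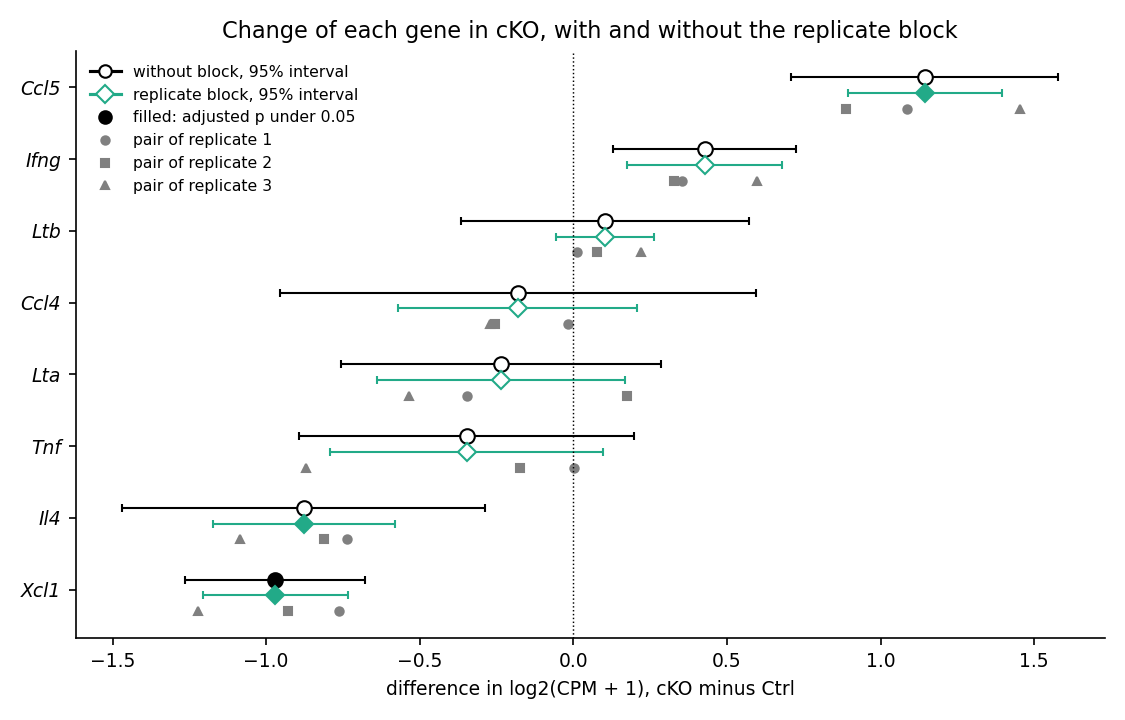
Difference in log2(CPM + 1), cKO minus Ctrl (horizontal axis), with limma's 95% interval without the block (black circles) and with it (green diamonds), filled where the adjusted p is under 0.05, and the difference within each same-numbered pair below (grey). Xcl1 and Ccl5 lie farthest from 0 at -0.97 and 1.14, and the replicate 3 pair is the farthest from 0 for all 8 genes.

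The replicate 3 pair gave the largest difference in size for all 8 genes, against 38.2% of all tested genes and 47.3% of the 10141 genes whose mean reached 5 CPM. The difference between that pair and the other pairs was tested with an interaction term. None of the 8 passed (smallest limma adjusted p 0.506, that of Xcl1, unadjusted 0.0436), where 0.115% of all tested genes did. Within pairs, 6 of the 8 genes moved in 1 direction in all 3 pairs (Ifng, Ltb and Ccl5 higher, Il4, Xcl1 and Ccl4 lower), against 29.99% of all tested genes. That share is lowered by tested genes at 0 in both replicate 3 libraries, which cannot move in 1 direction in all 3 pairs. For Xcl1, Il4, Ccl5 and Ifng, whose groups did not overlap, any pairing of the libraries gives 1 direction, so the pairs add nothing separate. Of the 8 genes, 6 were highest in replicate 3 among the Ctrl libraries and 3 among the cKO libraries.

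Levels were compared between genes per kilobase of exon, as the union of the exons annotated in GENCODE M21. In Ctrl, Ltb was the most abundant at 765 ± 128 CPM per kilobase (SD, n = 3), above 99.8% of tested genes. Xcl1 followed at 346 ± 50.8 and Ccl5 at 174 ± 26.5 CPM per kilobase, and the ranges of these 3 genes did not overlap. Il4 (28.9 ± 8.16) and Ifng (27.4 ± 1.56) came next and did not differ beyond their spread. Lta (10.9 ± 2.38), Tnf (9.44 ± 2.62) and Ccl4 (8.58 ± 2.99) were lowest and overlapped one another, and all 8 were above the median tested gene at 4.03 CPM per kilobase.

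In cKO the order changed at 3 places. Ccl5, at 388 ± 79.1 CPM per kilobase (SD, n = 3), stood above Xcl1 at 175 ± 12.4, and their ranges again did not overlap. Ifng, at 37.3 ± 5.12, stood above Il4 at 15.1 ± 2.97, with ranges of 32.4 to 42.6 and 11.7 to 17.1 CPM per kilobase. Ccl4 (7.30 ± 2.12) and Tnf (7.16 ± 1.003) also exchanged places, within their spread. With the length of the longest transcript instead, the orders were the same, but the Ctrl level of Il4 was 58.6 CPM per kilobase and its range then lay above that of Ifng.

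**Figure D3:**
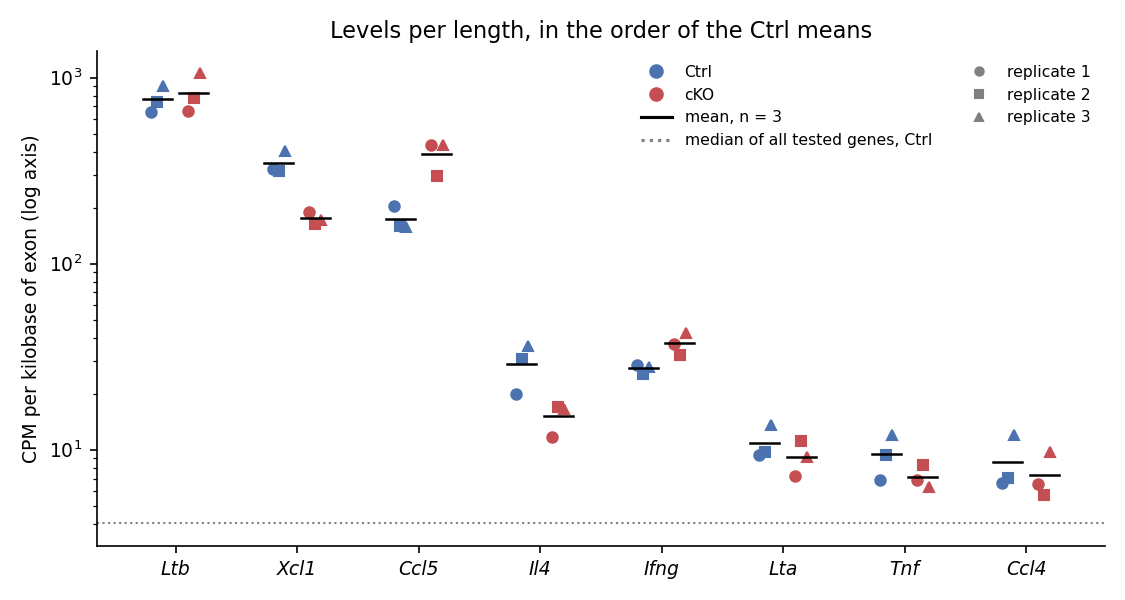
CPM per kilobase of exon on a log axis for each gene, ordered by the Ctrl mean, with Ctrl in blue, cKO in red, the replicate number as the symbol, a line at each mean (n = 3) and a dotted line at the Ctrl median of all tested genes (4.03). Ccl5 and Xcl1 exchange places between the groups, as do Ifng and Il4, while Ltb stays highest.

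Genes around the loci were read by the same test. Among 33 other tested genes, the 3 nearest on each side of each locus, none passed with or without the block, with log2 fold changes from -0.79 to 0.32 and a smallest limma adjusted p of 0.262 with the block. Near Il4 these included Rad50 (72.8 to 68.05 CPM), whose gene holds the control region of the type 2 cytokine locus. By the likeness of log2(CPM + 1) across the 6 libraries, the gene most like Xcl1 was Kcnip2 (Pearson r = 0.997, 15.6 CPM in Ctrl and 3.50 in cKO), that most like Il4 was Ppp1r3b (r = 0.992), and that most like Ccl5 was Errfi1 (r = 0.987). For Ifng it was Tra2b (0.989), for Ltb Xbp1 (0.998), for Tnf Gas5 (0.994), for Lta Anapc2 (0.979) and for Ccl4 Cdpf1 (0.996). These are the highest of 15690 values each, over libraries that share the replicate 3 difference.

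Of 47 further cytokine genes listed, 25 were in the table and 23 were tested. Of these 23, 2 rose without the block, where 0.204% of all tested genes rose, and the median log2 fold change of the 23 was 0.12. Csf1, the growth factor of macrophages, was at 13.2, 11.4 and 15.4 CPM in Ctrl and rose to 36.6, 37.1 and 50.01 CPM in cKO (log2 fold change 1.55, limma adjusted p 0.0177). Tnfsf14, which encodes the lymphotoxin-like ligand LIGHT, rose from 46.4 ± 1.504 CPM in Ctrl to 84.3 ± 9.49 CPM in cKO (SD, n = 3 each), which is 0.84 on the log2 scale (limma adjusted p 0.0292). With the block only, where 1.64% of all tested genes fell, 1 of the 23 fell. That gene, Tnfsf10, which encodes the death ligand TRAIL, went from 128 ± 6.10 to 94.4 ± 9.80 CPM (limma adjusted p 0.239 without the block, 0.0351 with it).

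Of 31 further chemokine genes listed, 11 were in the table and 7 were tested, and none passed without the block. With the block, 1 of the 7 passed as lower, against 1.64% of all tested genes. That gene, Ccl1, a ligand of CCR8, fell from 1.49, 4.39 and 1.55 CPM in Ctrl to 0.243, 0.333 and 0.0294 CPM in cKO (limma adjusted p 0.590 without the block, 0.00868 with it). The cKO values rest on few reads, as 1 read was worth 0.0347, 0.0238 and 0.0147 CPM in those libraries. The authors' deposited table gave Ccl1 an adjusted p of 0.99998.

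Receptor genes for products of the 8 genes were read beside them. The interferon gamma receptor chain Ifngr1 was higher in every cKO library (a mean of 1181 CPM against 961 CPM in Ctrl) but did not pass (limma adjusted p 0.458, and 0.103 with the block). Xcr1, the receptor of Xcl1 and also a marker of dendritic cells, did not pass either (11.2 ± 4.16 CPM for Ctrl, 7.80 ± 3.09 CPM for cKO; SD, n = 3 each; limma adjusted p 0.99998, and 0.418 with the block).

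Genes that control cytokine transcription were tested as a list of 39 of 41, and 30 of them had a higher mean log2 level in cKO, as had 6426 of all 15691 tested genes. Their median log2 fold change was 0.14, beside -0.038 over all tested genes. Of the 39, 1 passed without the block, where 0.663% of all tested genes passed. Runx1, a factor that binds cytokine and lineage loci in T cells, rose from 46.0 ± 4.08 CPM in Ctrl to 86.9 ± 5.46 CPM in cKO (SD, n = 3 each), which is 0.90 on the log2 scale (limma adjusted p 0.0189). With the block, where 1.24% of all tested genes rose, 3 more of the 39 did: Stat4, the signal transducer of interleukin 12 (163 to 229 CPM, limma adjusted p 0.0122), Irf8 (52.9 to 85.5 CPM, 0.00498) and Tcf7 (272 to 376 CPM, 0.0239). Tbx21, which encodes T-bet, an activator of Ifng, had means of 779 CPM (Ctrl) and 947 CPM (cKO) and did not pass (limma adjusted p 0.984, and 0.0771 with the block).

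Genes for decay or stability of cytokine messages did not pass in either fit, in 18 tested, and their median log2 fold change was 0.046. None of the 18 had an unadjusted limma p under 0.05 without the block. Those with the highest CPM were Zfp36l2 (418 CPM in Ctrl, 466 CPM in cKO), Elavl1 (207 and 220 CPM) and Cnot1 (198 and 209 CPM). Of 12 tested genes for shedding and secretion, 1 passed without the block, where 0.663% of all tested genes passed. That gene, Stx11, a syntaxin of lytic granule release, rose from 15.3 ± 1.49 CPM in Ctrl to 32.7 ± 0.698 CPM in cKO (SD, n = 3 each, limma adjusted p 0.0177). The TNF sheddase Adam17 was at 126 and 119 CPM (limma adjusted p 0.99998, and 0.802 with the block).

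**Figure D4:**
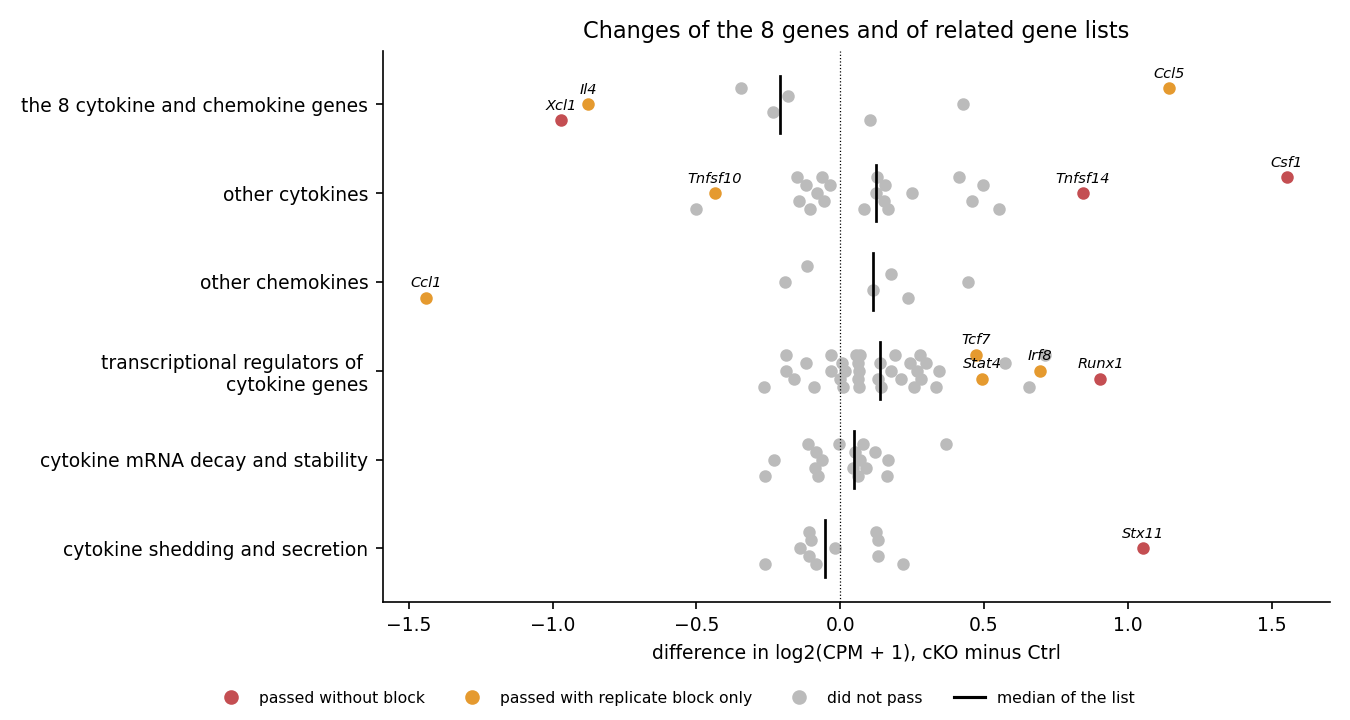
Difference in log2(CPM + 1), cKO minus Ctrl, of each tested gene (points) in the 8 cytokine and chemokine genes and in 5 related lists, with a line at each list's median. Red genes passed a limma adjusted p of 0.05 without the block, orange genes with the block only, and grey genes with neither. The list of 18 decay and stability genes holds no gene that passed.

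Markers of other cell types that make these products were read beside them. The summed level of the NK cell markers (5 of 6 in the table) ran from 12.2 to 63.98 CPM in Ctrl and from 20.7 to 46.9 CPM in cKO. Ncr1 and Eomes were at 2.28 CPM or less in each library, so most of each sum came from the other listed markers, Klri2, Kit and Klra8. The myeloid markers (7 of 10) summed to 103 to 127 CPM in Ctrl and 89.7 to 121 CPM in cKO, most of it Cst3. Csf1r was at 0 in both replicate 3 libraries and at 1.43 CPM or less elsewhere. Xcr1 of the same list was read in every library, at 13.2, 13.9 and 6.38 CPM in Ctrl and 11.3, 6.42 and 5.64 CPM in cKO. The B cell markers (5 of 7) summed to 354 to 392 and 365 to 457 CPM, of which the 4 other than Ighm held 4.32 to 15.2 and 3.14 to 16.1 CPM. The iNKT17 markers (7 of 10), the markers of double-positive thymocytes (6 of 8) and those of erythroid cells (1 of 6) had overlapping sums, and no gene in any of these lists passed with or without the block. Of the epithelial and stromal markers (5 of 9), 1 passed without the block, where 0.663% of all tested genes passed. That gene, Pecam1, rose from 26.7 ± 3.80 CPM in Ctrl to 57.04 ± 8.09 CPM in cKO (SD, n = 3 each, limma adjusted p 0.0423). The other 4 summed to 10.5 to 12.4 CPM in Ctrl and 10.1 to 11.04 CPM in cKO.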

How the data were processed

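RNA was sequenced from 3 Ctrl and 3 cKO libraries with reads of 75 bases. The extraction kit was a Qiagen micro kit and the libraries were made with NuGEN Ovation Ultralow, per the labels' protocols. Trimmomatic 0.33, STAR 2.5.2, HTSeq 0.6.1, edgeR and the build mm10 are named in the submitters' processing notes, and strand-specific counting is not given in the sources used here. The authors deposited CPM per library, in columns headed WT and KO that were taken as Ctrl and cKO by replicate number. Each gene row also holds, per the file headers, the log2 fold change, test score, p-value and adjusted p-value of the authors' own comparison. All CPM values were whole multiples of 1 read (tolerance 0.01 read), so reads were recovered for the count tests.

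The main test was limma 3.58.1 on log2(CPM + 1), which understates changes of low genes, for genes whose mean over libraries was 1 CPM or more, with trend and robust moderation and Benjamini-Hochberg adjustment over 15691 genes. The replicate number was a block in an alternative fit: the correlation of deviations from the group means was 0.855, 0.687 and 0.924 for same-numbered libraries 1 to 3. It was also 0.718 for Ctrl 2 with cKO 1 and 0.578 for Ctrl 1 with cKO 2, and below 0 for each differently numbered pair that held a replicate 3, so the numbers mainly set replicate 3 apart from 1 and 2. Adjusted p-values are limma's unless another tool is named. Intervals are 95% intervals of limma for single genes, unadjusted. An exact permutation test of 3 against 3 cannot give a p under 0.1 and was not used. Other alternatives were edgeR 4.0.16 and DESeq2 1.42.0 on recovered reads, other scalings, pseudocounts and filters, and fewer libraries.

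The genes and lists were chosen with earlier results of these data known. Named genes are all 8, Tgfbr2, Skil, Ski and Itgae, up to 4 per list past 0.05 and 3 more with the block, the 3 most abundant where none passed, and the most alike gene of each. Ifngr1, Xcr1, Tbx21, Adam17, Rad50, Gm20743 and single cell type markers were named after their values were seen. Exon lengths and 3′ regions are from GENCODE M21 (GRCm38), in which 17825 of 17985 gene identifiers were found.

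Some results on the lists are not reported here.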

Additional observations from a re-analysis of the deposited data

How the results depend on the processing

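Xcl1, Il4, Ccl5, Ifng, Tnf and Lta kept their direction in the 19 alternatives and in the 6 fits leaving out a library. Ltb and Ccl4 kept theirs in the 19. Of these 19, those with the pairs of replicate numbers 1 and 3 and 2 and 3 with the block were added after seeing the data. Xcl1 passed in 16 of the 19, Ccl5 in 8, Il4 in 7 and Ifng in 1, and none of the 8 genes passed in a fit that left out one library. Without one library the log2 fold change of Ltb ran from -0.083 to 0.26 and that of Ccl4 from -0.37 to 0.050. Ltb reversed to -0.0027 without Ctrl replicate 1 and -0.083 without cKO replicate 3, and Ccl4 to 0.050 without Ctrl replicate 3.

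Of the 8 genes, 0 were called higher and 1 lower. The replicate block, alone, with TMM scaling, under edgeR and in each set of 2 replicate numbers, gave 1 higher and 2 lower. DESeq2 gave 2 higher and 2 lower, a filter at a mean of 5 CPM gave 1 higher, and no gene was called lower (0) at an adjusted p of 0.01, under edgeR without the block or under limma without trend and robust moderation. Fits without one library gave 0 to 0 higher and 0 to 0 lower. The median log2 fold change ran from -0.32 to -0.012 in those fits, and the latter, without Ctrl replicate 3, shifted the median of all tested genes by -0.11.

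Over all tested genes, 104 were called. The replicate block gave 451, 513 with TMM scaling, 469 under edgeR, 943 in replicates 1 and 2, 387 in 1 and 3, and 388 in 2 and 3. Without the block there were 291 in replicates 1 and 2, 41 under edgeR, 554 under DESeq2, 61 under limma-voom, 39 without trend and robust moderation and 26 at 0.01, and from 14 to 85 without one library. The causes were not tested. The lowest read count behind a value of the 8 genes was 124 (Ccl4).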
